A study of Mus musculus with 12 samples.

Results

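Collagen genes were taken as the protein-coding mouse genes whose RefSeq symbol is Col, a number, the letter a and a number, which gave 44 of 21631 genes on build mm10. Each was called open in an ATAC-seq library when a peak of that library lay within 1 kb of either annotated end of the gene. The 12 libraries came from mTEChi, the mature epithelial cells of the thymic medulla, which were sorted from enzyme-digested thymi of C57BL/6 mice aged 4 to 7 weeks. Aire -/- mice gave 2 libraries and had 2 Aire +/+ wild types (the knockout set). Heterozygotes for a changed cysteine of AIRE, Aire +/C313Y and Aire +/C442G, gave 2 libraries each, and each had 2 Aire +/+ wild types of its own (the C313Y set and the C442G set). Which wild types belong to which mutant was read from the form of the titles. The labels name neither separate animals nor pools for a library, so the spread between the libraries of a group may be technical.

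Collagens are triple-helical proteins of the extracellular matrix, each chain being the product of its own gene. Fibrillar collagens such as types I, III and V form the fibers of connective tissue and are made mostly by fibroblasts. Type IV collagens form the sheet of basement membranes, on which epithelial cells rest, and types XV and XVIII sit in or beside those membranes. Epithelial cells are anchored to the membrane by the transmembrane type XVII collagen of hemidesmosomes and by the anchoring fibrils of type VII. Medullary thymic epithelium is itself an epithelium with a basement membrane, and with the help of AIRE it transcribes many genes of other tissues. An ATAC-seq peak marks chromatin that a transposase can reach, and does not measure transcription.

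The lists held 34047 to 122326 peaks, and the wild types of the knockout set had the shortest, 34715 and 34047 peaks. Counts of reads were not used here, so depth is unknown and a closed gene is one without a called peak. Of 11 marker genes of medullary epithelium 4 to 10 were open per library. Epcam, Aire, the class II gene H2-Aa and Tnfrsf11a, the receptor of RANK ligand, were open in all 12 libraries and the class II transactivator Ciita in none. Also in that list, Cd80 was open in 1 library, Cd86 and Foxn1 in 9 and Fezf2 in 11. Both basal keratins of that list were mostly closed in the knockout set, where Krt5 was open in 0 and Krt14 in 1 of 4 libraries. In bulk chromatin a peak carried by a few cells and weak access in many cells cannot be told apart.

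Collagen genes were open in fewer libraries than most protein-coding genes. In all 12 libraries 2 of the 44 were open (4.55%), against 46.6% of all genes, and a collagen gene was open in a median of 4.5 libraries against 11 for all genes. The share open in none was 22.7% (10 genes), close to the 25.8% of all genes. The difference lay between these extremes, since 47.7% of collagen genes and 17.4% of all genes were open in 1 to 8 libraries. Both collagen genes open throughout, Col13a1 and Col23a1, encode transmembrane collagens. Open in none were the fibrillar Col3a1, the basement membrane chain Col4a6, the fibril-associated Col9a1, Col20a1 and Col22a1, the type VI chains Col6a3, Col6a5 and Col6a6, and Col26a1 and Col28a1. Without the 2 shortest lists 7 collagen genes were open throughout.

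**Figure D1:**
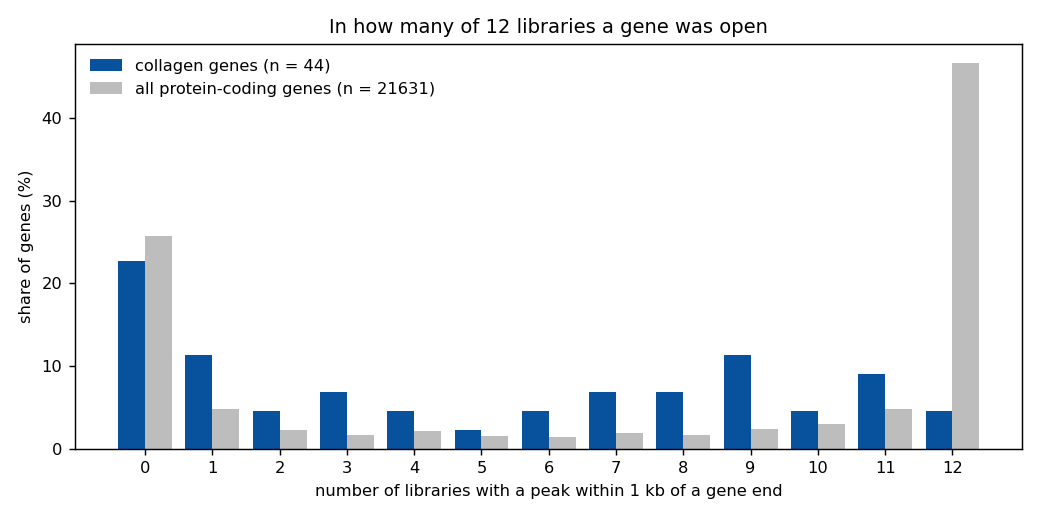
Share of genes (vertical axis, %) by the number of libraries in which they were open (horizontal axis), for the 44 collagen genes (blue) and all 21631 protein-coding genes (grey). Collagen genes spread over the middle of the range, with 4.55% open in all 12 libraries against 46.6% of all genes.

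In Aire -/- libraries 14 and 18 collagen genes were open, against 9 and 6 in their wild types, so the groups did not overlap. The share of all protein-coding genes open did not overlap either, with 61.3% and 63.0% in Aire -/- against 51.6% and 51.6% in wild types. The means were 16 ± 2.83 in Aire -/- and 7.5 ± 2.12 in wild types (SD, n = 2 each), a ratio of 2.13, while peaks of the whole list stood at a ratio of 2.63 and open genes of all kinds at 1.20. That difference did not hold with lists of equal length. With the 34047 strongest peaks of each list, 4 and 8 were open in Aire -/- libraries and 9 and 6 in wild types, and the mean difference turned to -1.5. Aire +/C313Y libraries had 23 and 17 open collagen genes and their wild types 19 and 14, which overlapped (20 ± 4.24 and 16.5 ± 3.54). Aire +/C442G libraries had 26 and 24 against 23 and 28 in wild types, a mean difference of -0.5, smaller than the replicate SD, which changed its sign without heterozygote replicate 2 (0.5) or wild-type replicate 2 (2).

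The 2 groups of wild types with longer lists had more open collagen genes than those of the knockout set, although all 6 share the label Aire +/+. The share of all genes open did not overlap either, with 61.0% and 59.2% in the C313Y set and 63.5% and 64.5% in the C442G set against 51.6% and 51.6%. With the 34047 widest peaks of each list, 13 and 10, and 11 and 13, collagen genes were open against 9 and 6. All genes then stood at 53.6% and 54.6%, and 50.8% and 52.2%, against 51.5% and 51.6%. As a share of the 44, the wild types ranged between 13.6% and 63.6%, which spans the whole range of the 12 libraries. Of 12 fibroblast and mural cell markers, 6 and 8 were open in Aire -/- libraries and 3 and 1 in their wild types, 5 and 6 in Aire +/C313Y and 5 and 4 in their wild types, and 7 and 9 in Aire +/C442G and 8 and 8 in their wild types. In the knockout set the share of all genes open did not overlap between the groups either (61.3% and 63.0% against 51.6% and 51.6%). None of these 12 markers was open in all 12 libraries. Endothelial markers moved between 0 and 4 of 8 per library. Of these Pecam1, Cdh5 and Tie1 were open in 0 libraries, Emcn in 1, Tek and Cldn5 in 5, Kdr in 6 and Esam in 9. The part of such cells in the collagen counts was not tested.

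**Figure D2:**
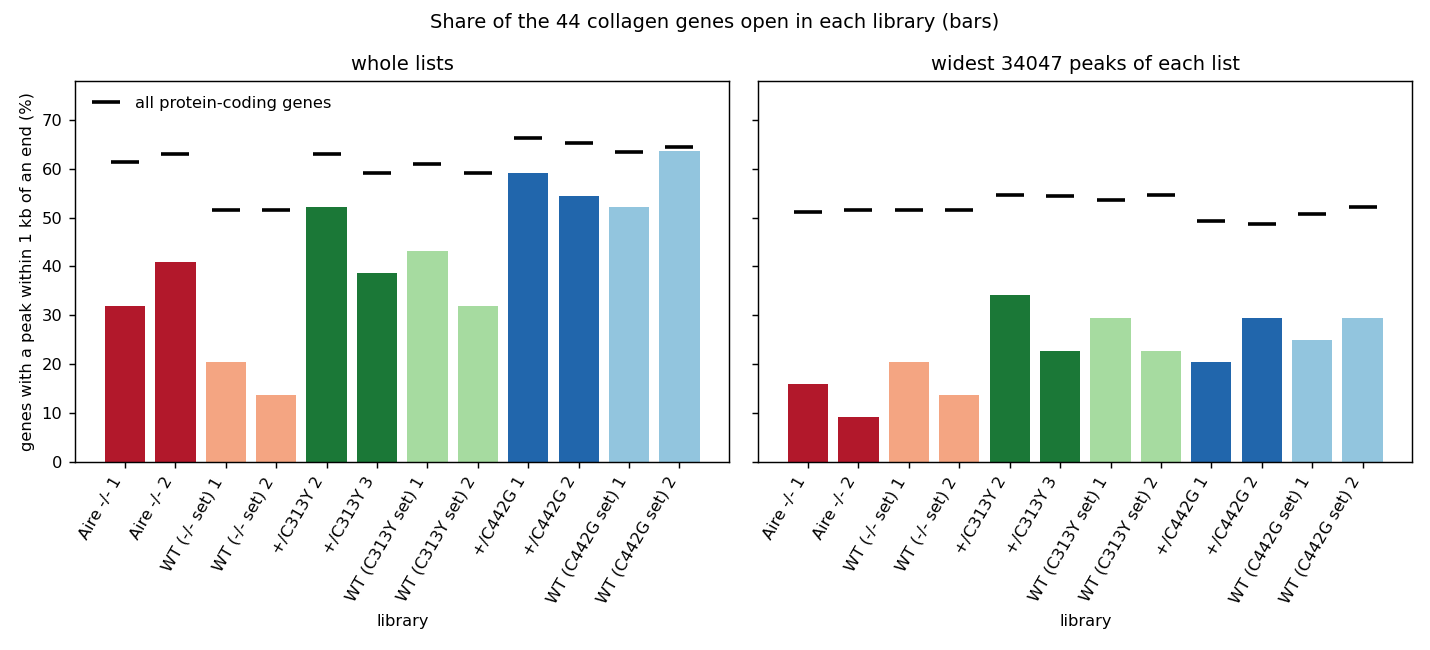
Bars give the share of the 44 collagen genes open in each library (vertical axis, %), with whole lists on the left and the 34047 widest peaks of each list on the right, each mutant pair left of its wild types. Black marks give the share of all protein-coding genes. Whole lists gave 14 and 18 open collagen genes in Aire -/- against 9 and 6 in their wild types, and the widest peaks 7 and 4 against 9 and 6.

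Fibrillar collagens were the largest class, with 11 genes. Per library 4 and 5 of them were open in Aire -/- against 1 and 1 in wild types, 6 and 5 in Aire +/C313Y against 5 and 2, and 7 and 6 in Aire +/C442G against 5 and 9. None of the 11 was open in all 12 libraries. In the knockout set the share of all genes open did not overlap between the groups either (61.3% and 63.0% against 51.6% and 51.6%). Of the 3 chains of the abundant fibers of types I and III, only Col1a1 was open in more than 1 library. Col1a1, which encodes the main chain of type I collagen (chr11:94936224-94953042, mm10), was open in 11 libraries through a region at chr11:94936810-94937562, starting 586 bp inside the lower-coordinate end of the gene. Its peak measured 530 and 524 bp in Aire -/- against 104 bp and none in wild types, 640 and 623 bp in Aire +/C313Y against 645 and 573 bp, and 603 and 557 bp in Aire +/C442G against 703 and 576 bp. Thus the peak was wide in 10 libraries, narrow in wild-type replicate 1 of the knockout set and missing in replicate 2. Its position inside the gene also means that it is lost with a window of 500 bp.

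Col1a2, the partner chain of type I, was open in 1 library, wild-type replicate 2 of the C442G set, with a peak of 71 bp (chr6:4505264-4505334). Col3a1, the type III chain, had no peak at either end in any library, though a region inside the gene was called in 10. The promoters of both genes, and that of Col27a1, a minor fibrillar chain, are shown because they stand at the ends of the range, with a peak over the window in 0 libraries for Col3a1 and Col1a2 and in 12 for Col27a1. The annotated start of Col27a1 lies inside the gene record, so that its promoter fell outside the windows used. A region there (chr4:63215239-63215439), 1230 bp from the gene end, had a peak in all 12 libraries, whereas the gene ends were open in 7. The windows run from 250 bases before to 50 bases after the start (RefSeq, GRCm38.p6) on the plus strand, at chr1:45311288-45311587 for Col3a1, chr6:4505368-4505667 for Col1a2 and chr4:63215162-63215461 for Col27a1. Capitals mark the TATA box (letters TATAAA), the CCAAT box (letters CCAAT) and the GC box (letters GGGCGG) on either strand, and no printed matches overlap.
Col3a1: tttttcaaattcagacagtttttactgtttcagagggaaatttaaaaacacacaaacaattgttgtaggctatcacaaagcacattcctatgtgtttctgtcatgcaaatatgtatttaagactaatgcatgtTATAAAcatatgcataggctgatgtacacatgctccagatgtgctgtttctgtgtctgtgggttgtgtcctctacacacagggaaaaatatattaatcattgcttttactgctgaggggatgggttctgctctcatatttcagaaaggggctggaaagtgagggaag
Col1a2: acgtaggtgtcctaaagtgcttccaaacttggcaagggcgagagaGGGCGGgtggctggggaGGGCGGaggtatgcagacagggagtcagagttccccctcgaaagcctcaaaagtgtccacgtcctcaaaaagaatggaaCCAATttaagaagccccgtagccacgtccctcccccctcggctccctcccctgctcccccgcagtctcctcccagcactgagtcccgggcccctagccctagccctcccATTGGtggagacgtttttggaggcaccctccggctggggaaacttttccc
Col27a1: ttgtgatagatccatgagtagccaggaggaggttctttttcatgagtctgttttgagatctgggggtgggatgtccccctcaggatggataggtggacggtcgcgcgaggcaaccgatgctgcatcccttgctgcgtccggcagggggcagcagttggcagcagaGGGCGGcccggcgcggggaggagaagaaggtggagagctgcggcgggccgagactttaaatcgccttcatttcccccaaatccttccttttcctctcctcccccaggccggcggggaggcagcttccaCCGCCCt
The Col3a1 window holds 37.7% G and C and 0 CpG dinucleotides, that of Col1a2 61.0% and 13, and that of Col27a1 61.7% and 18. At the Col27a1 promoter the authors' fold enrichment was 7.70 and 10.1 in Aire -/- against 5.37 and 5.99 in wild types, and 8.11 and 9.57 in Aire +/C442G against 6.52 and 7.41. Mutant libraries were the higher ones in both sets, but folds come from lists of unequal length and were not tested. The median fold over all open genes was also higher in mutants. It was 7.02 and 7.49 in Aire -/- against 5.60 and 5.94 in wild types, and 7.53 and 8.01 in Aire +/C442G against 6.44 and 6.97. Folds given below are to be read beside these medians.

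Type V collagen, which joins type I fibers and limits their diameter, has 3 chains here. Col5a1 was open in 10 libraries, at a region over its start (chr2:27885880-27887457), and both missing libraries were the wild types of the knockout set. Peaks covered 666 and 152 bp of its windows in Aire -/- against 0 and 0 bp in wild types, 792 and 607 bp in Aire +/C313Y against 250 and 575 bp, and 487 and 1078 bp in Aire +/C442G against 611 and 362 bp. Col5a3 was open in 7 libraries, among them both Aire -/- and neither of their wild types, with folds of 4.08 and 3.99 in Aire -/-. Col5a2 was open in 2, the wild types of the C442G set, at chr1:45503013-45503214 with folds of 3.33 and 3.78. The 3 type V chains thus had 3 different sets of open libraries.

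Fibrillar chains of cartilage and the minor chain Col24a1 were open in 3 to 6 libraries. Col11a1, a type XI chain, had peaks of 142 and 70 bp at its start in Aire -/- and none in wild types, and was open in 5 libraries in all. Col2a1, the type II chain of cartilage, was open in both Aire +/C442G libraries (folds of 3.25 and 3.41), in neither of their wild types and in wild-type replicate 2 of the knockout set. Col24a1 was open in 6 libraries, with peaks of 119 and 87 bp in Aire +/C313Y and none in their wild types, 88 and 144 bp in Aire +/C442G against none and 459 bp, and 219 bp in Aire -/- replicate 2. Col11a2 was open in 4 libraries through a region that also lies within 1 kb of Rxrb, so the peak cannot be assigned to either gene.

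**Figure D3:**
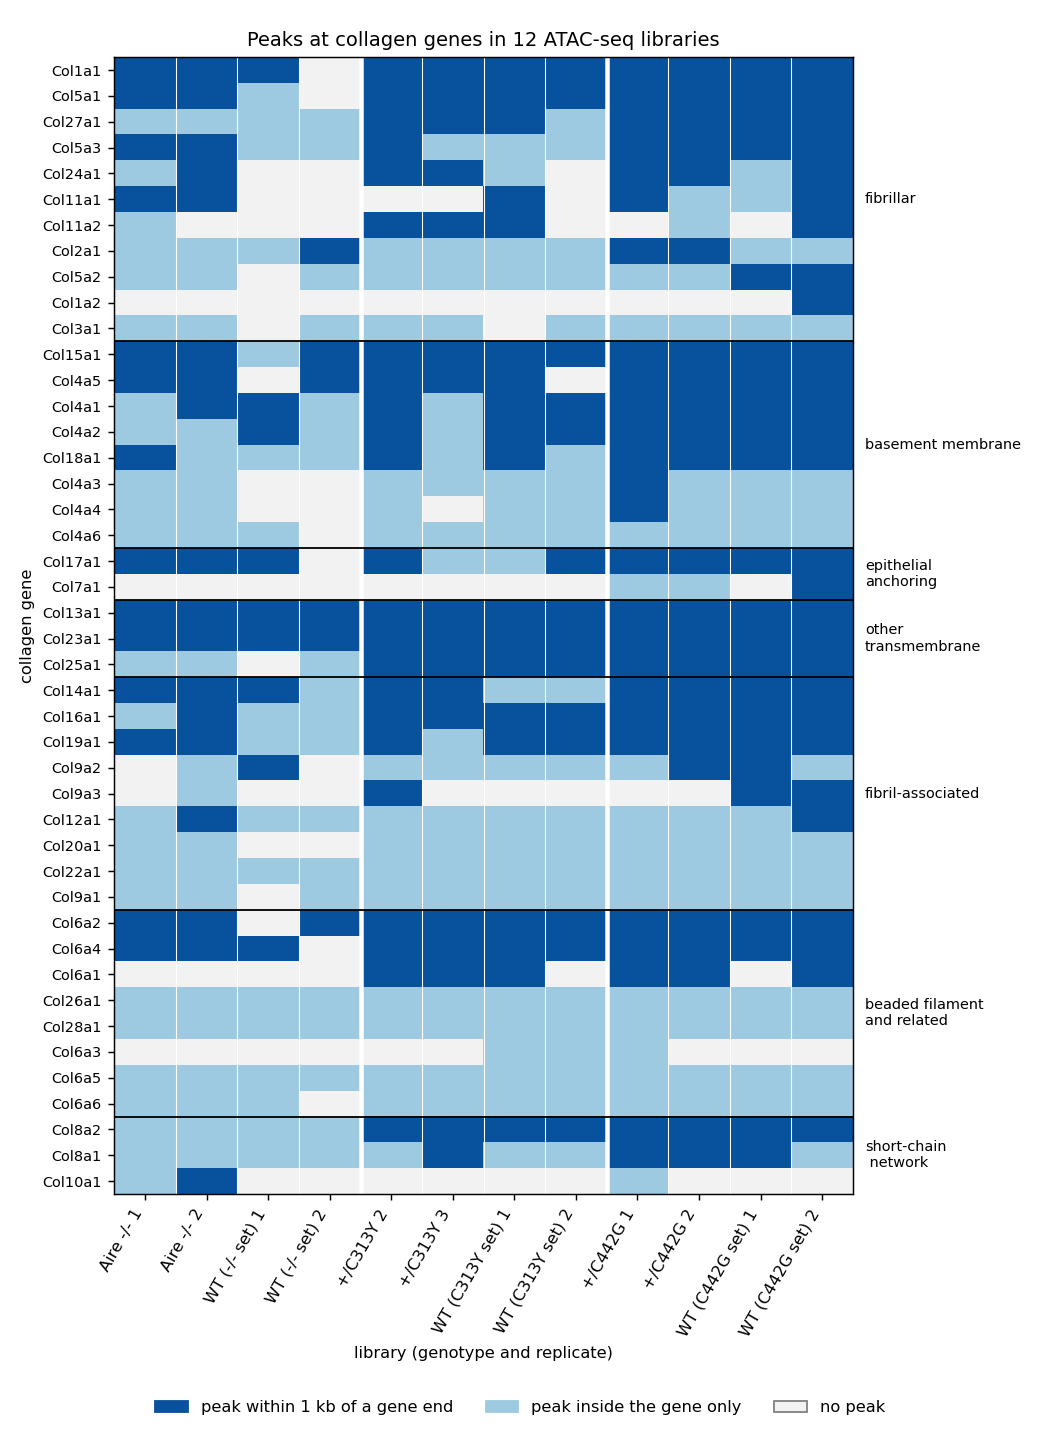
Each row is a collagen gene, ordered by class and by the number of open libraries, and each column a library, each mutant pair left of its wild types. Dark blue marks peaks at a gene end (1 kb or less), light blue peaks inside the gene only and grey no peak. Col13a1 and Col23a1 are dark throughout, and the wild types of the knockout set have the fewest dark cells, 9 and 6.

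Basement membrane collagens numbered 8, of which 3 and 3 were open in Aire -/- against 2 and 2 in wild types, 5 and 2 in Aire +/C313Y against 5 and 3, and 7 and 5 in Aire +/C442G against 5 and 5. The share of all genes open in the knockout set was 61.3% and 63.0% against 51.6% and 51.6%, which did not overlap either. Col4a1 and Col4a2, the chains of the common type IV network, are read in opposite directions from starts 21 bp apart and were open together in 8 libraries. A shared region across both starts (chr8:11312471-11312932) had a peak in 7: Aire +/C313Y replicate 2, both wild types of that set and all 4 libraries of the C442G set. Its peaks measured 331 bp and none in Aire +/C313Y against 141 and 94 bp in wild types, and 462 and 337 bp in Aire +/C442G against 121 and 74 bp. No library of the knockout set had this region, and Aire -/- had 0 open libraries at Col4a2. That closure rests on the limit of 1 kb. Both Aire -/- libraries had a peak in a region 1399 bp from the Col4a2 end (chr8:11311246-11311406, in 5 libraries). Within 2500 bp Col4a2 was open in 12 libraries. Wild-type replicate 1 of the knockout set had a separate peak of 86 bp at 563 bp from the Col4a2 start. A further region (chr8:11313529-11313916) had a peak in 2 libraries, both wild types of the C442G set. Over the whole windows, peaks covered 399.5 ± 88.4 bp in Aire +/C442G against 280 ± 91.9 bp in wild types at Col4a1 (SD, n = 2 each). At Col4a2 the values were 399.5 ± 88.4 and 238 ± 32.5 bp. The folds of the shared region stood at 3.50 and 3.58 in Aire +/C442G against 2.91 and 3.03 in wild types, at percentiles of 37.1 and 26.0 in Aire +/C442G and 6.2 and 4.0 in wild types within their lists by −log10 p. Below is the Col4a2 promoter (chr8:11312555-11312854, plus strand, RefSeq, GRCm38.p6), shown because the shared region lies over it, with the same motifs in capitals.
Col4a2: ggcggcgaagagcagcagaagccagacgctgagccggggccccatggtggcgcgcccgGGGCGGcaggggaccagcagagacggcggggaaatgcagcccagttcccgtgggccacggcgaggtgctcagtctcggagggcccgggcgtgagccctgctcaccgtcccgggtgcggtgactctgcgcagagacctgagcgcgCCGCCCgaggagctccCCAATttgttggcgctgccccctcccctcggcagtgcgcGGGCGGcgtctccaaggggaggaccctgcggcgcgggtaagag
It holds 73.7% G and C, 33 CpG dinucleotides, 3 GC boxes, 1 CCAAT box and 0 TATA boxes.

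**Figure D4:**
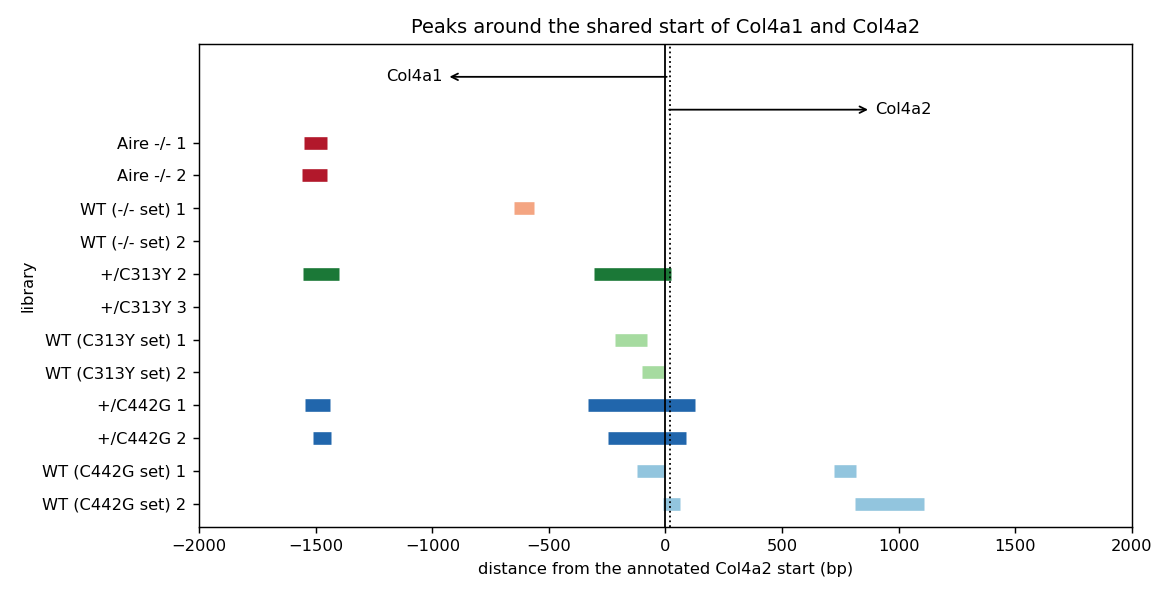
Peaks around the Col4a2 start (vertical line at 0; dotted line, Col4a1 start; arrows, direction of the genes), 1 row per library, each mutant pair above its wild types. The horizontal axis is the distance in bp. Rows of the C442G set all carry a peak at the shared start, and no row of the knockout set does.

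The other type IV genes also lie in pairs. Col4a3 and Col4a4, chains of the kidney filter, overlap by 113 bp and shared 1 peak in 1 library, Aire +/C442G replicate 1, with a fold of 2.96. Col4a5 was open in 10 libraries and its neighbour Col4a6 in 0, although their starts are 1343 bp apart. The Col4a5 region (chrX:141475146-141475861) began 1051 bp from the Col4a6 end, just outside the window, so this contrast rests on the limit of 1 kb. It covered 71 and 218 bp in Aire -/- against 0 and 76 bp in wild types, 124 and 79 bp in Aire +/C313Y against 103 and 0 bp, and 700 and 546 bp in Aire +/C442G against 104 and 210 bp. In the C442G set both heterozygotes exceeded both wild types, and the share of all genes with such an excess was not computed. Whole lists of that set covered 30.3 and 28.6 Mb in heterozygotes against 23.7 and 23.3 Mb in wild types.

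Both multiplexins were open in more than 6 libraries. Col15a1 was open in 11, at its start in 10 and at its far end in 10. Col18a1, the source of endostatin, was open in 7, at a region across its start in 6 (chr10:77166336-77166634) and at a second in 3. At its start region the peaks measured 286 and 96 bp in Aire +/C442G against 85 and 127 bp in wild types, and 123 bp in Aire +/C313Y replicate 2 and 106 bp in wild-type replicate 1 of that set. Inside Col18a1 lay 4 regions with a peak in all 12 libraries, more than in any other collagen gene.

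Some regions lay close to the limit of 1 kb. By the edge nearest the gene, those furthest out inside it lay 933 bp from Col23a1 (in 9 libraries) and 946 bp from Col6a2 (in 1). Both genes had another end region in these libraries. Regions 830 bp from Col15a1 (in 12) and 793 bp from Col14a1 (in 10) straddled the limit, and peaks of 10 and 3 libraries reached it. In wild-type replicate 2 of the knockout set Col15a1 was open by 6 bp. Its peak in replicate 1, the closed library, missed the window. Just outside were regions 1033 bp from Col28a1 (in 1 library) and 1051 bp from Col4a6 (in 10). Within 2500 bp 4 collagen genes remained closed in all libraries, against 10 within 1 kb.

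Of the epithelial anchoring genes Col17a1 was open in 9 libraries and Col7a1 in 1. Col17a1 encodes the hemidesmosome collagen that spans the basal cell membrane (chr19:47646341-47692042, minus strand). A region over its start (chr19:47691983-47692379) had folds of 3.86 and 4.28 in Aire -/- against 3.70 and none in wild types, and 7.18 and 4.77 in Aire +/C442G against 3.25 and 5.38. Peak width there was 239 and 185 bp in Aire -/- against 99 bp and none in wild types, 213 bp and none in Aire +/C313Y against none and 109 bp, and 227 and 323 bp in Aire +/C442G against 341 and 254 bp. The groups overlapped in the C313Y and C442G sets. Aire +/C442G replicate 2 had a further peak at the far end, which is shared with Slk. The Col17a1 promoter (chr19:47691993-47692292, minus strand, RefSeq, GRCm38.p6) is shown because it is an open promoter of another composition, with 46.3% G and C, 5 CpG dinucleotides, 2 TATA boxes and 0 GC boxes.
Col17a1: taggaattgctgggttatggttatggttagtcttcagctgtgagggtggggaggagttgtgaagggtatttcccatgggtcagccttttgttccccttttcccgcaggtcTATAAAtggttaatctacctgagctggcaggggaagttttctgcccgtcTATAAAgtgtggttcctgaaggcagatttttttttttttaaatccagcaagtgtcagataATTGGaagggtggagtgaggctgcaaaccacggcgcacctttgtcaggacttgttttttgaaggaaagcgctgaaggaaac
Col7a1, the anchoring fibril gene (chr9:108953586-108984875), had a gene-end peak in wild-type replicate 2 of the C442G set alone, 79 bp wide with a fold of 3.16. That library had the most open collagen genes, 28.

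Transmembrane collagens other than type XVII were the class open most often. Col13a1, a collagen of cell adhesion sites and the neuromuscular junction, was open in all 12 libraries through a region at its far end (chr10:61838755-61839045). Its folds were 6.03 and 8.72 in Aire -/- against 5.25 and 4.84 in wild types, and 8.71 and 10.9 in Aire +/C442G against 8.26 and 8.52. Median folds over all open genes were likewise higher in the mutants of both sets. The promoter of Col13a1 had a peak in 0 libraries, while a region beyond its start, 1344 bp from the gene end, was called in 11. Col23a1 was open in all 12 at a far-end region (chr11:51584414-51585119) that also lies within 1 kb of Phykpl, and at its start in 11 (chr11:51289566-51290386). Start peaks of Col23a1 had folds of 4.07 and 2.99 in Aire -/- against 3.70 and none in wild types, and 6.78 and 6.52 in Aire +/C442G against 3.09 and 5.21. With the annotated start alone 1 collagen gene, Col27a1, was open in all 12 libraries. Col25a1, a collagen of neurons, was open in all 8 libraries of the C313Y and C442G sets and in 0 of 4 of the knockout set.

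Fibril-associated collagens, which decorate the surface of fibers, had 9 genes with a median of 3 open libraries. Per library 2 and 4 were open in Aire -/- against 2 and 0 in wild types, 4 and 2 in Aire +/C313Y against 2 and 2, and 3 and 4 in Aire +/C442G against 5 and 5. Col14a1 had 4 regions at its ends, 2 at each. Peaks covered 385 and 608 bp of its windows in Aire -/- against 50 and 0 bp in wild types, 1039 and 287 bp in Aire +/C313Y against 0 and 0 bp, and 589 and 827 bp in Aire +/C442G against 234 and 463 bp. In each set both mutants exceeded both wild types, and the share of all genes with such an excess was not computed. Whole lists covered 17.6 and 20.1 Mb in Aire -/- against 7.04 and 7.30 Mb in wild types, and 30.3 and 28.6 Mb in Aire +/C442G against 23.7 and 23.3 Mb. In the C313Y set they overlapped, at 17.1 and 12.5 Mb against 14.3 and 12.4 Mb. The Col14a1 values depend on the limit of 1 kb. A region at its lower-coordinate end (chr15:55306409-55306851) had a peak in 10 libraries, but only 3 of these peaks reached the window. With windows of 2500 bp Col14a1 was no longer gained in Aire +/C313Y, and covered bases were not measured in wider windows. Col19a1 was open in 9 libraries, with folds of 4.70 and 6.63 at its start in Aire -/- and no peak in wild types. Col9a3, a cartilage chain, was open in Aire +/C313Y replicate 2 and in both wild types of the C442G set, where the peaks of the 2 wild types did not overlap. Col16a1 was open in 9 libraries, Col9a2 in 3 and Col12a1 in 2.

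Type VI collagen forms beaded filaments beside cells. Its gene Col6a4 was open in 11 libraries, with folds of 5.98 and 7.59 in Aire -/- against 3.99 and none in wild types, and 8.01 and 6.05 in Aire +/C442G against 5.90 and 6.13. Col6a2 was also open in 11 and Col6a1 in 6, none of these 6 in the knockout set. Col6a3, Col6a5 and Col6a6 were closed at their ends, as were the related Col26a1 and Col28a1. Col6a5 had a promoter peak 1572 bp from the gene end in 8 libraries (chr9:105960499-105960891), all those of the knockout and C442G sets. The short-chain genes Col8a1 and Col8a2, which form the lattice beneath the corneal endothelium, were open in 4 and 8 libraries and the hypertrophic cartilage gene Col10a1 in 1, Aire -/- replicate 2.

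Calls of gain and loss by genotype were few. A gene was gained when both mutants and neither of their wild types were open, and lost in the reverse case. In Aire -/- 4 of the 31 collagen genes closed in both wild types were gained, Col5a1, Col5a3, Col11a1 and Col19a1. That is 12.9%, against 11.8% of all such genes, and 0 of 2 were lost (all genes, 0.0582%). The gained count was 8 without Aire -/- replicate 1, 8 without wild-type replicate 1 and 7 without wild-type replicate 2, and 0 with the 34047 strongest peaks of each list. Aire +/C313Y gained Col14a1 and Col24a1, 2 of 24 (8.33%, against 2.36% of all genes), and lost 0 of 13 (all genes, 0.661%). There the gained count was 4 without heterozygote replicate 3 and 6 without wild-type replicate 1, and 3 genes were lost without heterozygote replicate 2 and 1 without wild-type replicate 2. Aire +/C442G gained Col2a1, 1 of 14 (7.14%, against 2.7%), and lost Col5a2 and Col9a3, 2 of 21 (9.52%, against 0.476%). Here 3 were gained without heterozygote replicate 2, 2 without wild-type replicate 1 and 3 without wild-type replicate 2, and 6 were lost without wild-type replicate 1. Leaving out a library relaxes the rule of a call, so counts without it could only stay or rise. The share of all genes called under the relaxed rule was not computed. With 2 libraries against 2 no gene can reach a p below 0.333 within a set, so these calls carry no test. When all 6 wild types served as controls, 0 collagen genes were gained or lost in each comparison. The 0 lost was fixed by the rule, since Col13a1 and Col23a1, the only collagen genes open in all 6 wild types, were open in every library. Gains could come only from the genes already called, and the share over all genes was not computed.

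None of the 7 gained genes was gained in more than 1 comparison, and each had a peak in at least 1 of the 6 wild types. Col5a1 and Col19a1 were open in 4 of the 6 wild types, Col14a1 in 3, Col5a3 and Col11a1 in 2 and Col24a1 and Col2a1 in 1. Over the 3 comparisons, an exact two-sided permutation of labels within each set (smallest possible p = 0.00926) was run for every gene open in 1 to 11 libraries. For presence of a peak, 0 of 32 collagen genes had an unadjusted p under 0.05, against 0.284% of all genes tested. The smallest was that of Col24a1, open in 5 of 6 mutant libraries and in 1 of 6 wild types (exact permutation p = 0.0833, Benjamini-Hochberg adjusted p = 1). For bases covered, 3 of 32 collagen genes had an unadjusted p under 0.05, against 9.52% of all genes, and 0 passed adjustment. These were Col14a1 (498 bp more in mutants, exact permutation p = 0.00926, the smallest possible, adjusted p = 0.382), Col5a1 (331 bp more, exact permutation p = 0.0278, adjusted p = 0.413) and Col4a5 (207.5 bp more, exact permutation p = 0.0370, adjusted p = 0.444).

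Peaks at collagen gene ends were weak within their lists. In the 8 lists with scores, the median collagen gene had its strongest peak at a percentile of 30.1 to 51.0 by −log10 p, while the median over all open genes lay at 77.9 to 88.2. Median fold enrichment was 3.77 to 4.69 for collagen genes and 5.60 to 8.01 for all open genes. Col23a1 ranked high in all 8, its strongest peaks standing at 95.5 and 95.5 in Aire -/- against 89.6 and 87.1 in wild types, and at 98.1 and 96.5 in Aire +/C442G against 97.4 and 96.4. Col1a1 ranked at 32.5 and 69.5 in Aire -/- against 31.2 in the open wild type, and at 68.2 and 65.2 in Aire +/C442G against 52.1 and 71.0. The gained peaks of Col11a1 ranked at 32.2 and 10.3 in Aire -/-, and those of Col2a1 at 15.9 and 10.4 in Aire +/C442G.

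**Figure D5:**
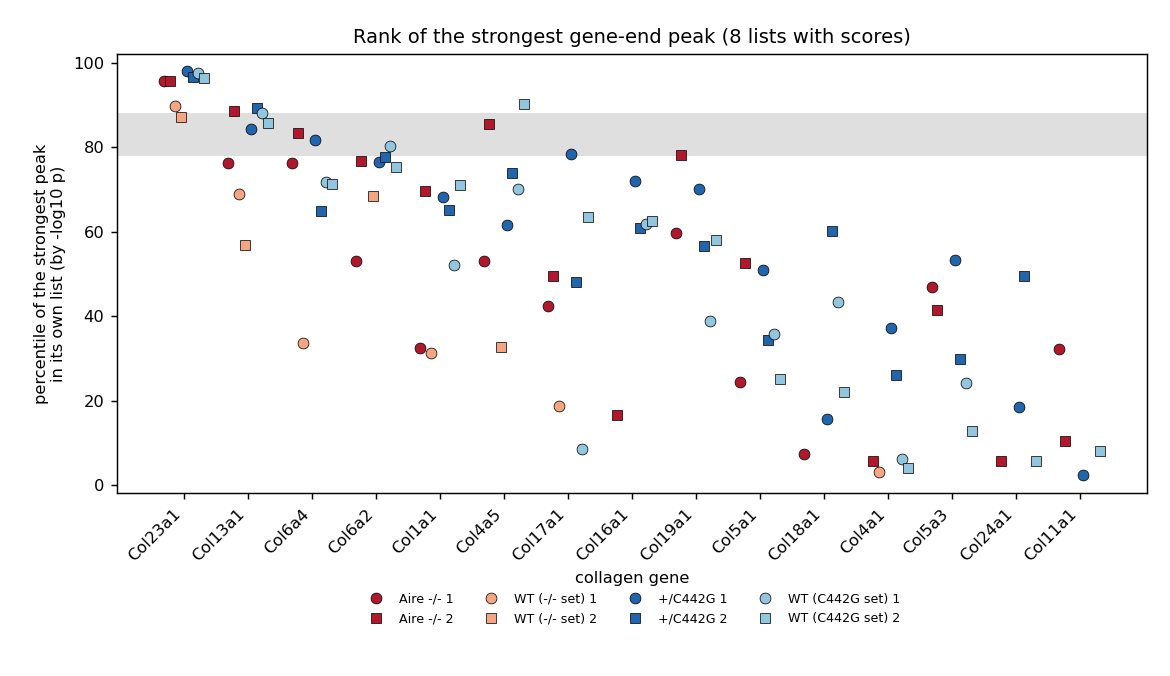
Percentile of a gene's strongest gene-end peak within its own list by −log10 p (vertical axis) for 15 collagen genes (horizontal axis) in the 8 lists with scores. Points are libraries, coloured by group with mutants left of their wild types, and a missing point is a closed gene. The grey band spans the medians over all open genes, 77.9 to 88.2. Col23a1 lies above or within it, and most points of the other genes lie below it.

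Inside the genes, more than 1 kb from either end, collagen loci carried 541 merged regions, of which 21 had a peak in all 12 libraries and 266 in 1. Collagen genes are long, with a median of 114 kb against 17.3 kb for all genes, so density was compared. Per Mb there were 33.4 and 41.6 peaks in Aire -/- against 11.6 and 9.52 in wild types, 28.4 and 23.9 in Aire +/C313Y against 26.1 and 20.5, and 51.5 and 48.2 in Aire +/C442G against 37.7 and 36.0. The same density over all genes was 39.7 and 44.9 in Aire -/- against 13.1 and 13.1 in wild types, 33.3 and 24.0 against 29.4 and 22.7 in the C313Y set, and 59.8 and 56.2 against 43.8 and 44.4 in the C442G set. In each library collagen genes had the lower density. All 10 genes that were closed at their ends had an inner peak in at least 1 library, and Col22a1, Col26a1, Col28a1 and Col6a5 in all 12. Only Col1a2 and Col6a1 had no inner peak in any library.

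Promoter composition differed between collagen genes as it did between all genes. RefSeq gave 38 promoter windows for 35 of the 44. Windows with a peak in 9 or more libraries had a median of 61.7% G and C and 16 CpG dinucleotides (n = 9), those with a peak in 1 to 8 had 60.3% and 12 (n = 17) and those with none 52.8% and 3 (n = 12). Over all promoters these medians were 62.3% and 23, 57.3% and 11, and 47.0% and 3. On either strand a GC box stood in 60.5% of collagen windows and in 46.7% of all promoters, a TATA box in 13.2% and 12.7%, and a CCAAT box in 34.2% and 38.5%. Not in the table used were Col1a1, Col2a1, Col4a3, Col5a2, Col9a3, Col12a1, Col14a1, Col22a1 and Col26a1.

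Genes that modify and fold collagen were open more often than the collagen genes. Of 32 such genes 14 were open in all 12 libraries (43.8%, against 46.6% of all genes), among them the prolyl hydroxylase subunits P4ha1 and P4hb and the cyclophilin Ppib. Closed throughout were Plod2, a lysyl hydroxylase, and the protease Tll2. Serpinh1, the collagen chaperone HSP47, was open in 11. In Aire -/- and in Aire +/C442G 0 of the 32 were gained or lost, while Aire +/C313Y lost the chaperone Fkbp10 and the lysyl oxidase Loxl2 (2 of 24, or 8.33%, against 0.661% of all genes) and gained 0 of 5 (all genes, 2.36%). Collagen receptors were open in all 12 libraries for 4 of 10 genes, the integrin chains Itga1, Itga2, Itga10 and Itgb1. The receptor kinase Ddr1 was gained in Aire -/- (1 of 4, against 11.8% of all genes) and its relative Ddr2 was open in 0 libraries.

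Partners of type IV collagen in the basement membrane were open throughout about as often as other genes. Of 15 laminin and related genes 8 were open in all 12 libraries (53.3%, against 46.6% of all genes), among them the laminin chains Lama1 and Lama3, nidogen Nid2, perlecan Hspg2 and agrin Agrn. Lama4 was gained in Aire -/- (1 of 5, against 11.8% of all genes) and in Aire +/C313Y (1 of 5, against 2.36%), and Lamb1 was lost in Aire +/C442G (1 of 11, against 0.476%). Among the 5 hemidesmosome genes Itga6, Itgb4, Dst and Cd151 were open in all 12 and Plec in 10, next to 9 for Col17a1. Unadjusted p-values under 0.05 were reached by 0 genes of these 4 lists in the exact permutation test of presence.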

How the data were processed

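Cells were sorted from digested thymi, per the labels' protocols. Tools were MACS2, Picard, Bowtie2 and cutadapt, and the build mm10, per the submitters' processing notes, which give no versions. The authors deposited 1 peak list per library. Of these, 8 are broad peaks with a deposited score, a deposited fold enrichment, and a −log10 p and a −log10 q by the authors' caller, with −log10 q from 1.00 up. The 4 lists of the C313Y set hold positions only, as deposited, so peaks there were ranked by width. Peaks on chromosomes 1 to 19 and X were joined to 21631 RefSeq genes of GRCm38.p6, which shares coordinates with mm10, when at least 1 bp lay within 1000 bp of a gene end. Presence and covered bases were compared by exact permutation, adjusted over 5980 genes by Benjamini-Hochberg. Replicate numbers did not pair the libraries. The members, classes and gene lists were chosen with earlier results of these data known. By rule, all members are accounted for, and every member gained, lost or under an unadjusted p of 0.05 is described. Calling was tested on simulated lists. Alternatives were windows of 500 and 2500 bp, the start only, stricter and equal-length lists, at least 50% of the peak inside the window, other controls and left-out libraries. Python 3.11.15, numpy 2.4.6, pandas 2.3.3 and matplotlib 3.10.9 were used.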

Additional observations from a re-analysis of the deposited data

How the results depend on the processing

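Lists without read counts and groups of 2 limit every statement. The mean difference in open collagen genes (8.5 in the knockout, 3.5 in C313Y, -0.5 in C442G) and the calls moved as follows. The cause was not tested. With windows of 500 bp the knockout gained 7 and C442G lost 1. With 2500 bp the difference was 14 in the knockout and 3 in C442G, a reversal, and 7, 1 and 2 genes were gained in the knockout, C313Y and C442G. With the annotated start only, C313Y gained 1 and C442G gained 0 and lost 0. The reference used gives no start for Col14a1, Col2a1, Col5a2 and Col9a3, so these genes could not be called there. Genes with a start still could be. The strongest peaks per set reversed the knockout difference to -1.5 with 0 gained, and gave -7 and 0 gained in C442G. The widest 34047 peaks of all lists gave -2 in the knockout, a reversal, with 0 gained and 1 lost, 1 gained in C313Y and 1 lost in C442G. At a −log10 q of at least 3 the difference was 4 in the knockout and 2.5 in C442G, a reversal, where 0 were gained and 1 lost. With all 6 wild types as controls 0 were gained in each comparison and 0 lost in C442G, where the rule left no collagen gene that could be lost. Counting gene bodies, chosen after seeing the data, gave 13 in the knockout and 0.5 in C442G, a reversal, with 0 gained and 1 lost in both C313Y and C442G.

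Leaving out each library in turn, differences ranged from 6.5 to 10.5 in the knockout, 0.5 to 6.5 in C313Y and -3 to 2 in C442G, where they reversed to 0.5 without heterozygote replicate 2 and to 2 without wild-type replicate 2. Gains ranged over 5 to 8, 2 to 6 and 1 to 3 in that order and losses over 0 to 2, 0 to 3 and 2 to 6. The rule of a call is looser with a library left out, so gains and losses could not fall below those of all libraries. The number of collagen genes with an unadjusted exact permutation p under 0.05 ranged from 0 to 1, the gene being Col24a1 (exact permutation p = 0.0278) without Aire -/- replicate 1 or without wild-type replicate 2 of the C442G set. With a replicate block 0 collagen genes had such a p (96 assignments, smallest possible 0.0208). Libraries with the same number did not deviate together (correlations of 0.00871 and 0.0225). Collagen genes open throughout, 2 in all, came to 7 without the 2 shortest lists, 1 with the start only, 1 with the widest peaks, 0 with 500 bp and 5 with 2500 bp, and those open in no library, 10, to 18 with the widest peaks and 4 with 2500 bp. These settings were added after seeing the data. The other 81 values for counts and differences stayed within 1.5 times (counts) or 1 SD (differences) of those reported, among them a C442G difference of 0 with windows of 500 bp and with the start only.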

Other observations

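Some of the strongest peaks at collagen loci lay inside the genes. A region inside Col23a1 (chr11:51539688-51539940) had a peak in all 12 libraries, with folds of 13.1 and 14.6 in Aire -/- against 6.34 and 9.33 in wild types, and 19.6 and 21.4 in Aire +/C442G against 14.9 and 16.8. It ranked above 98.3% and 98.2% of peaks in the Aire -/- lists and above 82.9% and 96.6% in those of their wild types. Col22a1, closed at both ends in all libraries, held 2 regions with a peak in all 12. The first (chr15:71917741-71918055) had folds of 10.5 and 11.9 in Aire -/- against 6.53 and 5.97 in wild types, and 14.6 and 10.6 in Aire +/C442G against 13.1 and 13.02. Col26a1, also closed at its ends, held 1 such region (chr5:136790909-136791181), with folds of 4.46 and 9.78 in Aire -/- against 6.33 and 4.51 in wild types and 12.2 and 11.4 in Aire +/C442G against 9.03 and 9.63. Groups overlapped at Col26a1 in the knockout set and at Col22a1 in the C442G set. Median folds over all open genes, taken at gene ends, were also higher in the mutants of both sets. Inner peaks of other genes were not compared, and the differences in fold were not tested.

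Fibroblast and mural markers were called in both directions in Aire +/C313Y, where the pericyte genes Cspg4 and Des joined Pdgfrb among the gained (3 of 6), and the dermatopontin gene Dpt joined Pdgfra and Dcn among the lost (3 of 3). Of all genes 2.36% were gained and 0.661% lost there. In Aire -/- Dpt and Fbn1 were gained (2 of 8, against 11.8% of all genes) and 0 lost. In Aire +/C442G 0 of 2 were gained (all genes, 2.7%) and 0 of 6 lost (all genes, 0.476%).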
